A study of Mus musculus with 2 samples.

Results

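In the mouse uterus on day 4 of gestation, 28 of 64 genes of the amino acid and neurotransmitter transporter families carried at least 1 peak of m6A (N6-methyladenosine), the commonest internal base modification of mRNA. The genes were chosen by name alone, as all protein-coding genes whose symbol starts with Slc1a, Slc3a, Slc6a, Slc7a, Slc36a, Slc38a or Slc43a, and they are 64 of the 21900 protein-coding genes of the annotation. A peak was given to a gene when its summit lay within the gene's RefSeq span on the mm10 build. Of the 64, 63 encode transporters or their partner subunits. The other one, Slc7a6os, was taken in by its symbol and its product is not a transporter.

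The assay was methylated RNA immunoprecipitation sequencing, in which fragments pulled down with an antibody to m6A (the IP) are set against unselected RNA (the input). Wild-type females aged 6 to 8 weeks were mated with fertile males, the day of the vaginal plug was counted as day 1, and uterine polyA RNA was taken on day 4, with the cell type given as mixed. There was 1 IP and 1 input sample, so no replicate spread exists, no test across samples was made, and every value describes 1 deposited list of 26584 peaks. The names of all 26584 peaks hold a run name, D8NegIP-Posinput, that differs from the labelled day 4. The labels do not settle which run or which background made the list, and all values below rest on it.

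Members of the solute carrier families move amino acids and related small molecules across membranes. The glutamate and neutral exchangers belong to Slc1, the sodium- and chloride-coupled carriers of GABA, monoamines, glycine, taurine and creatine to Slc6, and the sodium-coupled carriers of glutamine and alanine to Slc38. Many carriers of the Slc7 family reach the cell surface only when paired with a heavy chain of the Slc3 family. Amino acid uptake supplies protein synthesis in dividing stroma and feeds the lysosomal sensing that switches on the growth kinase complex mTORC1. m6A in mRNA is generally densest near stop codons and along the last exon, and anti-m6A antibodies also recognise a related methylated adenosine next to the cap.

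The transporter genes as a whole stood close to other genes. At least 1 peak was found in 28 of 64 genes (43.8%, 95% Wilson interval 32.3 to 55.9), beside 44.8% of all protein-coding genes, a share from which nothing about the members can be read. With a −log10 q of at least 5, 28 genes kept a peak beside 41.3% of all protein-coding genes, and with a fold enrichment of at least 4, 28 did beside 43.9%. A pileup of at least 10 left 27 genes beside 39.3%, and a summit in exactly 1 gene left 25 (39.1%) beside 40.8%. Any overlap with the span gave 28 beside 45.2%, 50% of the peak inside it 28 beside 44.9%, and leaving out summits more than 250 bp before the first listed start 28 beside 44.6%. Among the 311 other genes with an Slc symbol, 143 had a peak (46.0%, 40.5 to 51.5). The 28 genes held 59 peaks, 10 genes with a single peak and 18 with 2 or more. The median of the strongest fold enrichment per gene was 9.13 (order-statistic interval 8.10 to 11.1), beside 9.36 over all 9822 protein-coding genes with a peak. A peak can be called only where enough RNA is present, and RNA levels were not analysed here. In bulk tissue, fewer cells of a type and less RNA per cell cannot be told apart.

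The depth behind the peaks was modest. The IP pileup at the summit, the number of IP fragments covering it, ranged from 5 to 82 in transporter genes with a median of 18, and 12 of the 59 peaks (20.3%) rested on fewer than 10 fragments. The background expected at the same places, on the scale of the IP library, had a median of 1.54 fragments and ranged from 0.175 to 8.07. Fold enrichment is the pileup plus 1 over the background plus 1, so at the 10 genes whose strongest peak had a background under 1 the added 1 is the larger part of the divisor. Intervals of fold enrichments are exact Poisson intervals of the pileup at 95%. The Poisson intervals cover only counting error of fragments, and are too narrow where PCR copies of a fragment were counted as separate molecules. The Wilson and order-statistic intervals are taken over genes, except the Wilson intervals of peak positions, which are taken over peaks. No interval here covers spread between samples. Stroma, smooth muscle and endothelial markers were used to check the labelled tissue. All 14 had a peak (6 of 6, 4 of 4 and 4 of 4), beside 44.8% of all protein-coding genes. Of 6 neuronal markers only Map2 had one, with Snap25, Syp, Stmn2, Tubb3 and Rbfox3 without, and none of the 4 preimplantation embryo markers had one. Epithelial and gland markers had a peak in 5 of 6 genes, macrophage and leukocyte markers in 2 of 4 and adipocyte markers in 2 of 3. With so few genes, the Wilson intervals of all but the stroma, smooth muscle and endothelial markers span that 44.8%.

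**Figure D1:**
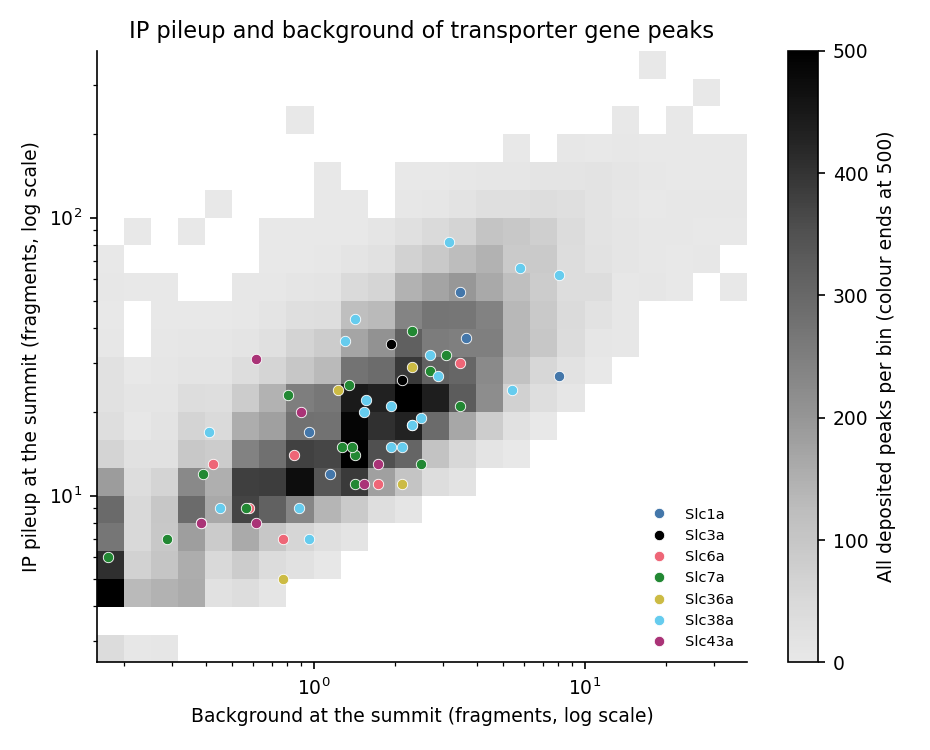
The plot of IP pileup against background, both in fragments at the summit on log axes, shows the 59 transporter gene peaks as coloured points by family over all 26584 deposited peaks in grey bins. The points lie within the grey cloud, from 5 to 82 fragments, and the highest is Slc38a10.

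The families differed in how many genes had a peak. The Slc6a family, which holds carriers of GABA, monoamines and glycine among others, had 4 of 21 (19.0%, 7.67 to 40.0006). Its interval lies below the 44.8% of all protein-coding genes. Within Slc6a, the monoamine carriers had 2 of 3 and the glycine and proline carriers 1 of 3. The GABA, betaine, taurine and creatine carriers had 1 of 6, and the remaining genes, Slc6a14 to Slc6a21, 0 of 9. The other 6 families together had 24 of 43 (55.8%, 41.1 to 69.6). All 3 Slc43a genes and both Slc3a genes had a peak, as did 6 of 11 Slc38a, 4 of 7 Slc1a, 2 of 4 Slc36a and 7 of 16 Slc7a genes. With so few genes each, the intervals of most families span the share of all genes, and the difference between families was not tested. The median gene span was 33.9 kb over the members, beside 17.1 kb over all protein-coding genes, and it was 33.2 kb in members with a peak, 34.8 kb in those without and 34.9 kb in Slc6a. Among members under 10 kb, 2 of 3 had a peak (66.7%, 20.8 to 93.9), beside 27.2% of all protein-coding genes of that length. From 10 to 30 kb it was 8 of 23 (34.8%, 18.8 to 55.1) beside 47.2%, and from 30 to 100 kb 18 of 34 (52.9%, 36.7 to 68.5) beside 57.0%. Over 100 kb it was 0 of 4 (Wilson interval 0 to 48.99), Slc1a2, Slc6a11, Slc7a11 and Slc7a14, beside 70.8%. The shortest and longest bins hold few members and differ from all genes in opposite directions, and no difference by length was tested.

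**Figure D2:**
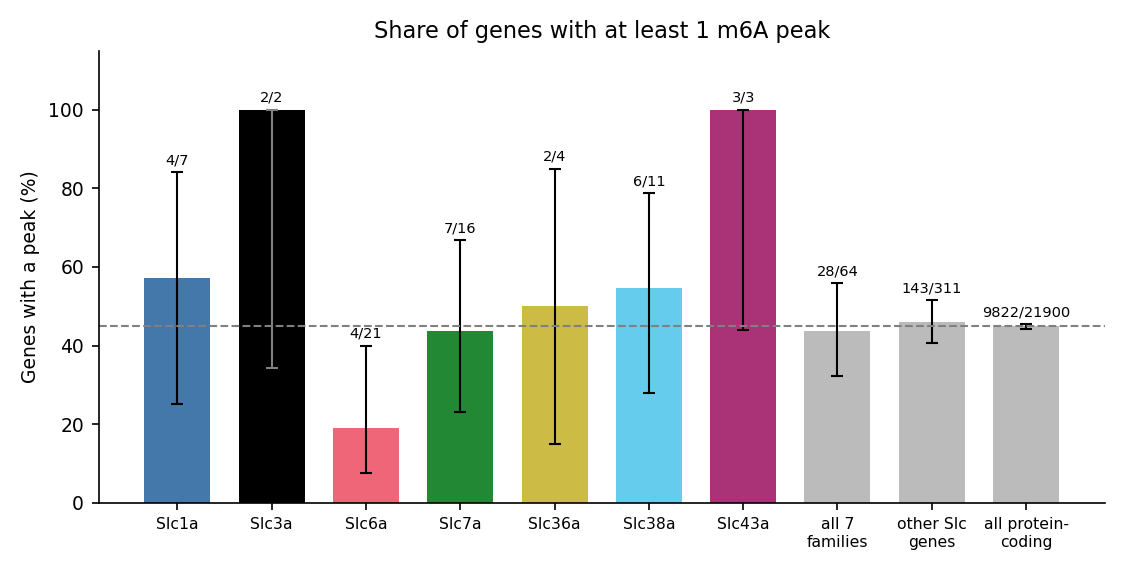
The bar plot gives the percentage of genes with at least 1 peak, with 95% Wilson intervals as error bars and the counts above, for each family, for all 7 families, for other Slc genes and for all protein-coding genes (dashed line). Slc6a is lowest at 4 of 21, and the 7 families together stand at 28 of 64.

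Of the strongest sites, those of Slc38a10 and Slc43a1 stood apart. The Slc43a1 summit lies before the start listed for the gene and also within an overlapping long non-coding RNA gene. Ranked by the strongest peak, 12 members lay above the median of all protein-coding genes with a peak and 16 below it. Only for these 2 genes did the interval lie wholly above that median, and only for Slc38a9 did it lie wholly below.

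**Figure D3:**
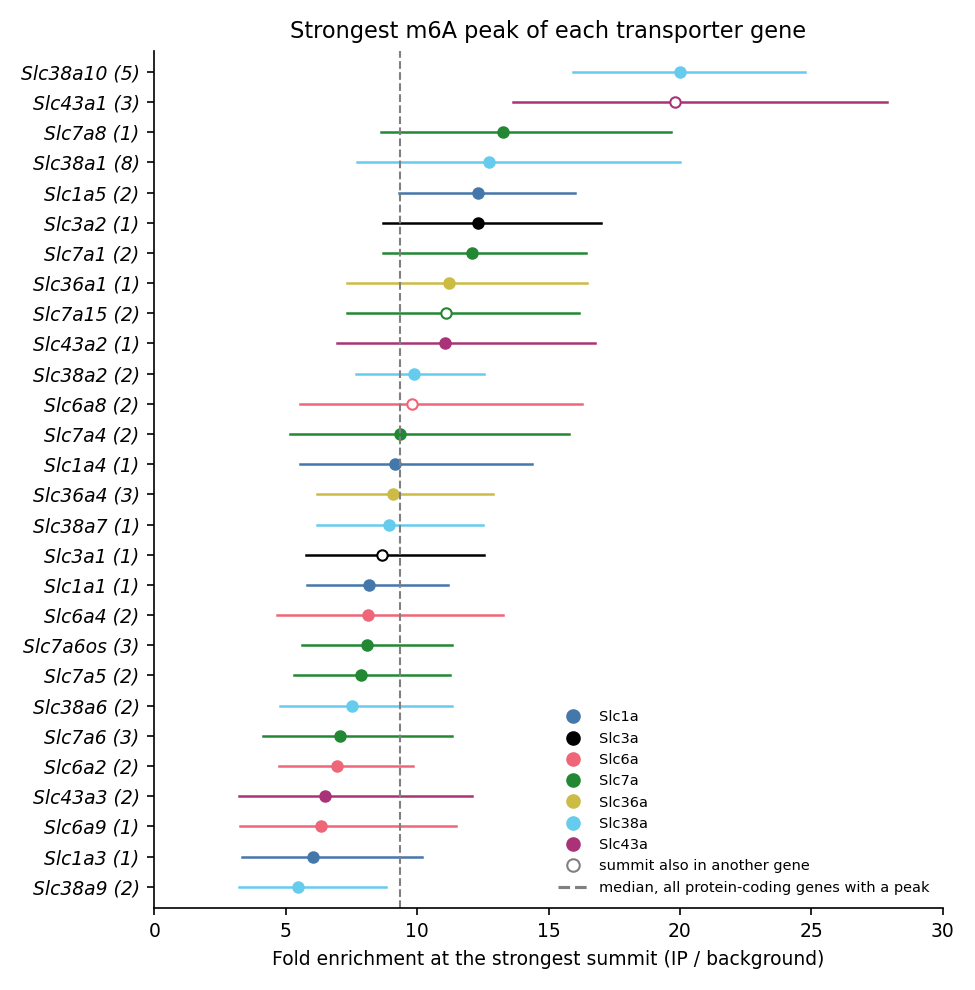
Each row is 1 of the 28 genes with a peak, with the number of its peaks in brackets. Points give the fold enrichment at its strongest summit, lines the 95% Poisson interval, colours the family, open points a summit that also lies in another gene, and the dashed line the median of 9.36 over all protein-coding genes with a peak. Slc38a10 and Slc43a1 are near 20, and the other 26 lie between 5.47 and 13.3.

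Slc38a10 encodes a carrier of glutamine, alanine and acidic amino acids found inside cells. Its strongest peak, at chr11:120104501-120106194, was 1694 bp wide, the widest in any member. The pileup there was 82 fragments over a background of 3.15, a fold enrichment of 19.99 (15.9 to 24.8), which ranks 568 among the 9822 protein-coding genes with a peak. The gene had 5 peaks, all between 1668 and 7046 bp from the 3' end of a span of 47401 bp. The 3 strongest, at 19.99, 18.2 (13.3 to 24.4) and 16.0 (11.3 to 22.0), could not be told apart by their intervals. The weaker ones, at 6.94 (5.35 to 8.87) and 5.14 (3.02 to 8.26), lay below all 3. The peak of 6.94 was not the one with fewest fragments, since it had 62 over a background of 8.07, the highest background among the members' peaks and shared by 1 peak of Slc1a5.

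The sodium-coupled glutamine and alanine carriers of system A differed in peak number more than in strength. Slc38a1, spread over 72021 bp on chromosome 15, had 8 peaks, the most of any member, from 3.92 (2.57 to 5.75) to 12.8 (7.73 to 19.99). Of these, 4 lay within 2323 bp of the high-coordinate end of the span, the strongest among them with 17 fragments over a background of 0.411. The nearby gene Slc38a2, which is known to be induced when amino acids run short, had 2 peaks at opposite ends of its 12337 bp. One was broad, at 1089 bp from the 3' end, with 9.90 (7.69 to 12.6) from 66 fragments, and the other lay 121 bp after the start with 8.99 (5.78 to 13.4) from 22. Slc38a4, the third system A gene, also on chromosome 15, had no peak.

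The lysosomal Slc38a members Slc38a7 and Slc38a9 had strongest peaks below the median of 9.36 over all protein-coding genes with a peak. The interval of Slc38a7 spans that median. Slc38a7, a lysosomal glutamine exporter, had 1 peak of 8.94 (6.2004 to 12.5). Slc38a9, the lysosomal arginine sensor upstream of mTORC1, had 2 peaks at 586 and 315 bp from the 3' end, of 5.47 (3.21 to 8.81) and 5.31 (2.71 to 9.60), the lowest maximum of any member with a peak. In Slc38a6 both peaks, 7.53 (4.79 to 11.3) and 5.75 (3.53 to 8.91), lay inside the gene, at least 46382 bp from the 3' end and 24295 bp from the 5' end. The system N genes Slc38a3 and Slc38a5, and Slc38a8 and Slc38a11, had none.

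Both heavy chains carried a peak. Slc3a2, whose product (CD98hc) brings most surface light chains to the membrane, had 1 peak of 12.3 (8.68 to 17.0) from 35 fragments over 1.92. Slc3a1, the heavy chain of the renal and intestinal cystine carrier, had 1 peak of 8.67 (5.77 to 12.6), but its summit also lies in Prepl, a gene that overlaps its 3' end, and a second peak lies 869 bp beyond the span, in Prepl.

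Of the light chains that pair with Slc3a2, those for large neutral amino acids had peaks. Slc7a8, a leucine and small neutral amino acid exchanger, had 13.3 (8.62 to 19.6) from 23 fragments over 0.807. Slc7a5, the main leucine exchanger of proliferating cells, had 7.86 (5.31 to 11.2) in a peak of 982 bp and a second of 5.96 (2.73 to 11.97) from only 6 fragments, 70 bp from the other end of the span. Slc7a6, which exchanges cationic for neutral amino acids, had 3 peaks within 2105 bp of the 3' end, of 4.00 (2.26 to 6.64), 7.05 (4.14 to 11.3) and 4.95 (2.68 to 8.54). Its neighbour Slc7a6os also had 3, of 8.10 (5.62 to 11.3), 6.40 (3.28 to 11.6) and 4.93 (3.14 to 7.42). No peak was found in Slc7a7, Slc7a10 or the cystine exchanger gene Slc7a11, nor in Slc7a9, the partner of Slc3a1, or in Slc7a12 and Slc7a13. The 2 peaks of Slc7a15, 11.1 (7.32 to 16.2) and 6.71 (3.94 to 10.8), lie in the body of a 70586 bp span where the long non-coding RNA gene 5033421B08Rik overlaps it, and the peaks carry no strand that would assign them.

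Among the cationic amino acid carriers, Slc7a1, the widely expressed arginine and lysine transporter, had 12.1 (8.69 to 16.4) from 39 fragments and a neighbouring peak of 6.19 (3.57 to 10.1), both between 4190 and 4591 bp from the 3' end. Slc7a4, a relative of this group, had 9.34 (5.17 to 15.8) from 12 fragments and 6.21 (2.96 to 11.97) from 7. Slc7a2, Slc7a3 and Slc7a14 had none.

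The Slc43a genes all had peaks, but the strongest of them also lies in another gene. Slc43a1, a carrier of large neutral amino acids, had 19.8 (13.7 to 27.9) from 31 fragments over 0.615 at chr2:84839770-84840150. That summit lies before the start listed for Slc43a1, at -359 bp from it, and inside D930003E18Rik, an overlapping long non-coding RNA gene, as does a second peak of 5.57 (2.76 to 10.4). The peak in Slc43a1 alone, 494 bp from its 3' end, had 5.13 (2.90 to 8.51) from 13 fragments. Slc43a2, a leucine and phenylalanine carrier, had 11.1 (6.96 to 16.8), 4896 bp from the 3' end, and Slc43a3, a purine nucleobase transporter, had 6.501 (3.22 to 12.1) and 4.73 (2.56 to 8.15).

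In the Slc1a family, the neutral exchangers and 2 of the 5 glutamate carriers had peaks. Slc1a5, the glutamine exchanger of proliferating cells, had 12.3 (9.32 to 16.0) from 54 fragments in a peak 1053 bp wide at chr7:16781370-16782422, and 3.09 (2.07 to 4.44) at the opposite end over a background of 8.07. These intervals do not overlap. Slc1a4, the serine and alanine exchanger, had 9.18 (5.56 to 14.4). The glutamate carriers Slc1a1 and Slc1a3 had 8.17 (5.81 to 11.2) and 6.04 (3.34 to 10.2), at 1951 and 2158 bp from the 3' end. Slc1a2, Slc1a6 and Slc1a7, which serve mainly brain and retina, had none.

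Of the 4 proton-coupled carriers, 2 had peaks. Slc36a1, a lysosomal exporter of small neutral amino acids, had 11.2 (7.34 to 16.5), 2693 bp from the 3' end. Slc36a4, a high-affinity proline and tryptophan carrier, had 9.07 (6.18 to 12.9) and weaker peaks of 3.85 (2.08 to 6.64) and 3.39 (1.48 to 7.16), the last from 5 fragments and with the lowest significance of any member's peak, a −log10 q of 1.57. Slc36a2 and Slc36a3, which lie beside Slc36a1 on chromosome 11, had none.

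In the Slc6a family, peaks were found in 2 monoamine carriers, the creatine carrier and 1 glycine carrier. The serotonin transporter gene Slc6a4 had 8.13 (4.69 to 13.3) from 14 fragments, 313 bp from the 3' end, and 4.52 (2.16 to 8.72) from 7 inside the gene. The noradrenaline transporter gene Slc6a2 had 6.95 (4.76 to 9.83) from 30 fragments, 3802 bp from the high-coordinate end of the span, and 5.75 (3.53 to 8.91) from 18. The markers of nerve cells other than Map2 had no peak in the same list, and the part of nerve tissue in these values was not tested. The glycine transporter gene Slc6a9 had 6.34 (3.24 to 11.5) from 9 fragments, 1210 bp from the 3' end. The creatine transporter gene Slc6a8 had 9.81 (5.55 to 16.3) from 13 fragments and 4.40 (2.38 to 7.58) from 11, both within 782 bp of the low-coordinate end, where the long non-coding RNA gene Gm32261 overlaps it.

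The remaining 17 Slc6a genes had no peak. They included the GABA, betaine and taurine carriers Slc6a6, Slc6a11, Slc6a12 and Slc6a13, the dopamine carrier Slc6a3, the glycine and proline carriers Slc6a5 and Slc6a7, and all 9 genes from Slc6a14 to Slc6a21, among them Slc6a14, a broad amino acid carrier of epithelia. A gene with no peak is not shown to lack m6A, because read depth over such genes was not analysed here.

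Strand and transcription starts were listed for 46 of the 64 genes, and 21 of these had peaks, 39 in all. The peaks lay towards the 3' end, with a median relative position of 0.913 along the span (quartiles 0.369 and 0.965), beside 0.721 (0.340 and 0.922) over the 18828 peaks of 7834 protein-coding genes with a listed start. Of the 39, 18 had their summit within 2500 bp of the 3' end of the span (46.2%, 31.6 to 61.4), beside 28.5% of the peaks of all those genes. The final 10% of the span held 21 of the 39 peaks (53.8%), beside 29.0%. Among strongest peaks alone, 12 of 21 (57.1%) lay within 2500 bp of the 3' end, beside 38.6%. Peaks of 1 gene are not independent, spans include introns, and the difference from all genes was not tested.

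**Figure D4:**
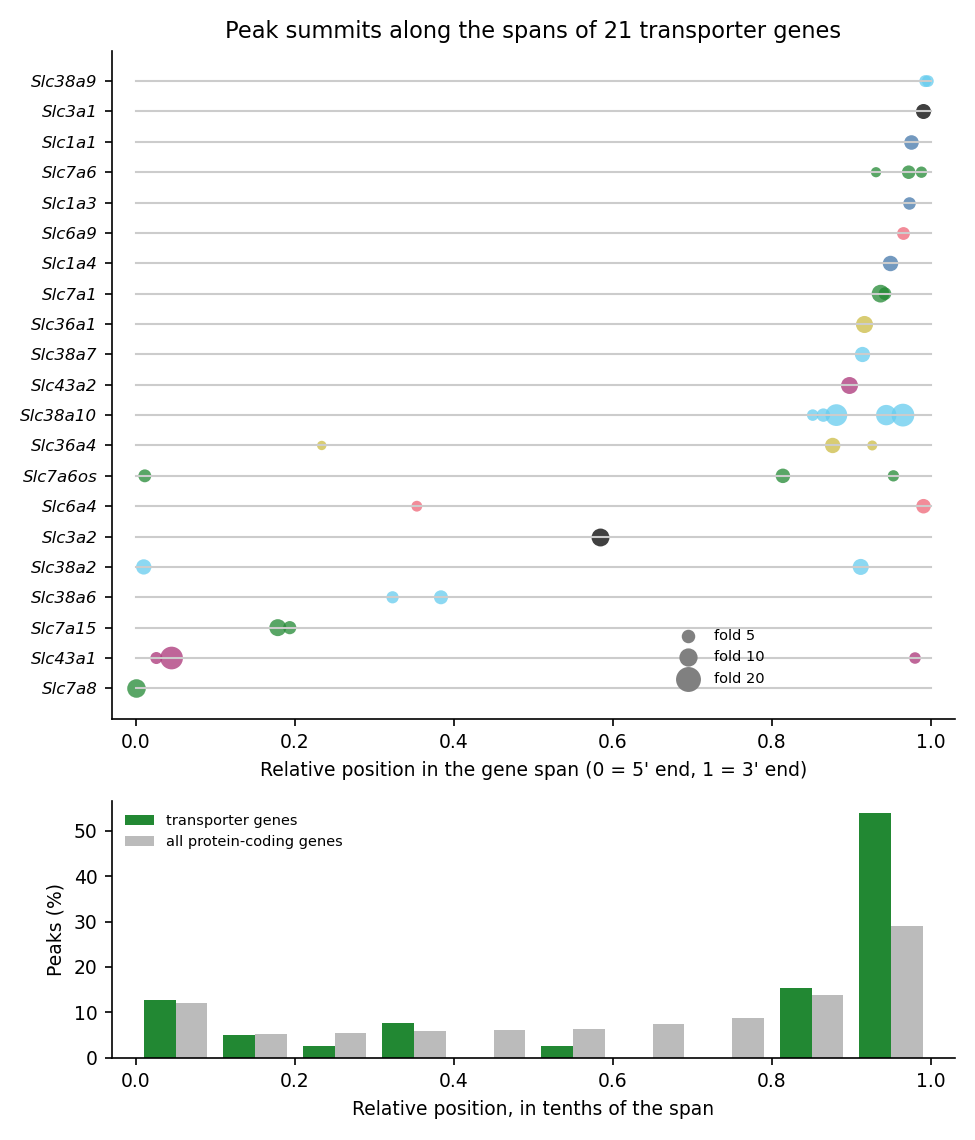
Upper panel, summits of the 39 peaks of 21 genes along the relative gene span, with area proportional to fold enrichment and colour giving the family as in the other plots. Lower panel, percentage of peaks in each of 10 equal stretches of the span for transporter genes (green) and all protein-coding genes (grey), in which the final stretch holds 53.8% and 29.0%.

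At the opposite end, 4 of the 39 peaks (10.3%, 4.06 to 23.6) had a summit within 250 bp of a listed start, beside 5.59% over all those genes. They were in Slc7a8, Slc3a2, Slc38a2 and Slc7a6os, and Slc3a2 and Slc7a8 are heavy and light chains of 1 carrier. For Slc7a8 and Slc3a2 this was the gene's only peak. The Slc3a2 summit lies mid-span, 9620 bp from the span's 5' end, but 148 bp after the only start listed. The Slc7a8 summit lies 42 bp after its start, and that peak reaches 124 bases before it. The promoter windows, of 250 bases before and 50 from the start, are printed below for these 3 genes and for Slc43a1, because they show where each peak meets the start. They are RefSeq sequences of GRCm38.p6, 5' to 3' on the strand of the gene, with the bases inside the deposited peak in capitals.
Slc7a8, chr14:54781837-54782136, minus strand: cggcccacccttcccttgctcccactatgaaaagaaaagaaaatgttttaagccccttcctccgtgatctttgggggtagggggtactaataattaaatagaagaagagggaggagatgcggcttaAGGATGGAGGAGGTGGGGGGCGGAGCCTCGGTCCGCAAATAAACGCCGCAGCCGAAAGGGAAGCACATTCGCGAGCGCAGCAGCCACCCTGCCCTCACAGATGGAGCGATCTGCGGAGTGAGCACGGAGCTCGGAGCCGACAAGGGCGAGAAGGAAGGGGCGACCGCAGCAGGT
Slc3a2, chr19:8713848-8714147, minus strand: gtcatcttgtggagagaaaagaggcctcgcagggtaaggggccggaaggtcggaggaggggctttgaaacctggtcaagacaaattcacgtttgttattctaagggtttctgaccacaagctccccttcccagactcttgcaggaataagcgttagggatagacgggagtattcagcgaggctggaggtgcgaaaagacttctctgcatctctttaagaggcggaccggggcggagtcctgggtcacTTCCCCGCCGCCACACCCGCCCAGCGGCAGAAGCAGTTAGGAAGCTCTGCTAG
Slc38a2, chr15:96699679-96699978, minus strand: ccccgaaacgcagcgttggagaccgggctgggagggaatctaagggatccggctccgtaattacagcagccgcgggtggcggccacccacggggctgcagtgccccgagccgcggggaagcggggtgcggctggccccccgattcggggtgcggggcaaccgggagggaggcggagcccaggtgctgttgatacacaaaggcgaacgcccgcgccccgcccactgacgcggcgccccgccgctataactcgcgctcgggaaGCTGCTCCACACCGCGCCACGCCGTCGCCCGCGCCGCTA
Slc43a1, chr2:84840073-84840372, plus strand: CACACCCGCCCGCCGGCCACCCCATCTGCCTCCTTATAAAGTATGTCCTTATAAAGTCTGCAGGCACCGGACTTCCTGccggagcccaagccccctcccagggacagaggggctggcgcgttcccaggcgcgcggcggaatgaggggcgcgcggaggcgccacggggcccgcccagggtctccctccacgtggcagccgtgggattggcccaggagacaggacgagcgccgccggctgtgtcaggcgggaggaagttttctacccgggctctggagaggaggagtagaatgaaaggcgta

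In Slc38a2 the capitals are the final 39 bases, all of them after the start, and in Slc3a2 the final 53, of which 3 precede it. In Slc43a1 they are the first 78 bases, so the strong peak stops short of the start. The letters GGACT, the commonest form of the m6A consensus, were searched on both strands. On the sense strand they occurred once in the Slc43a1 window, inside the peak, once in that of Slc7a6os (not printed), also inside its peak, and not in the windows of Slc7a8, Slc3a2 or Slc38a2. On the opposite strand they occurred once in Slc3a2. Of all 32851 windows of the table, 26.1% hold GGACT on the sense strand and 45.5% on either. The listed first base was C in Slc7a8 and Slc3a2 G in Slc38a2 and Slc43a1, and A in Slc7a6os, while 34.4% of all windows list A there.

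Lists of related genes stood on both sides of the carriers' 43.8% and of the 44.8% of all protein-coding genes. These differences were not tested. With all peaks counted, only the list of the response to amino acid shortage had a Wilson interval wholly above that 44.8%. The other lists' intervals span it. The response list's 15 genes with a peak fell to 12 with a summit in exactly 1 gene, beside 40.8% of all protein-coding genes. They fell to 13 with a fold enrichment of at least 4, beside 43.9%. A −log10 q of at least 5 or a pileup of at least 10 left 14, beside 41.3% and 39.3%. Intervals at these settings were not calculated. The list medians stand beside 9.36 over all protein-coding genes with a peak. Of 37 genes of amino acid sensing and mTORC1 control, 20 had a peak (54.1%, 38.4 to 69.0), with a median strongest enrichment of 12.6. They were led by Fnip2, a partner of folliculin, at 21.2 (16.2 to 27.4), the mitochondrial leucyl-tRNA synthetase gene Lars2 at 17.5 (14.0 to 21.7), and the Rag GTPase gene Rragc at 16.5 (12.7 to 21.1). The leucine sensor gene Sesn2 followed at 15.3 (10.4 to 21.7) and Fnip1 at 14.6 (11.0 to 18.9). The arginine sensor genes Castor1 and Castor2 had none, and neither did Lars, the other leucyl-tRNA synthetase gene on the list.

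Of 21 genes of the response to amino acid shortage, 15 had a peak (71.4%, 50.04 to 86.2), with a median of 9.46. The transcription factor genes Cebpg and Cebpb, at 35.0 (28.4 to 42.7) and 28.3 (21.7 to 36.3), led, followed by Ddit3 at 16.9 (12.8 to 22.0), Sesn2, which is on both lists, and Atf3 at 12.7 (7.99 to 19.3). The serine synthesis genes Phgdh, Psat1 and Psph and the asparagine synthetase gene Asns had no peak.

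Of 21 genes of transmitter synthesis and breakdown, 6 had a peak (28.6%, 13.8 to 49.96), with a median of 7.16. They included Csad, of taurine synthesis, at 11.4 (8.56 to 14.9) where Zfp740 overlaps it, and the glutamine synthetase gene Glul at 7.51 (6.10 to 9.15) over a background of 11.9. The histidine decarboxylase gene Hdc had 6.81 (3.59 to 12.01) and the GABA transaminase gene Abat 6.65 (3.50 to 11.7). Gad1, Gad2, Th, Tph1 and Tph2, the rate-setting enzymes for GABA, catecholamines and serotonin, had none. Of 21 other carriers of amino acids, peptides and transmitters, 6 had a peak (28.6%), the highest being 12.5 (8.35 to 18.2) in Slc17a5, a lysosomal sialic acid and acidic amino acid exporter, and 10.3 (6.99 to 14.6) in Slc25a44, a mitochondrial branched-chain amino acid carrier. The lysosomal histidine and peptide carrier gene Slc15a4 and the cystine exporter gene Ctns stood at 7.87 and 7.86. All 6 vesicular carriers of glutamate and monoamines or acetylcholine on that list, Slc17a6 to Slc17a8 and Slc18a1 to Slc18a3, and the vesicular GABA carrier Slc32a1 had none.

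**Figure D5:**
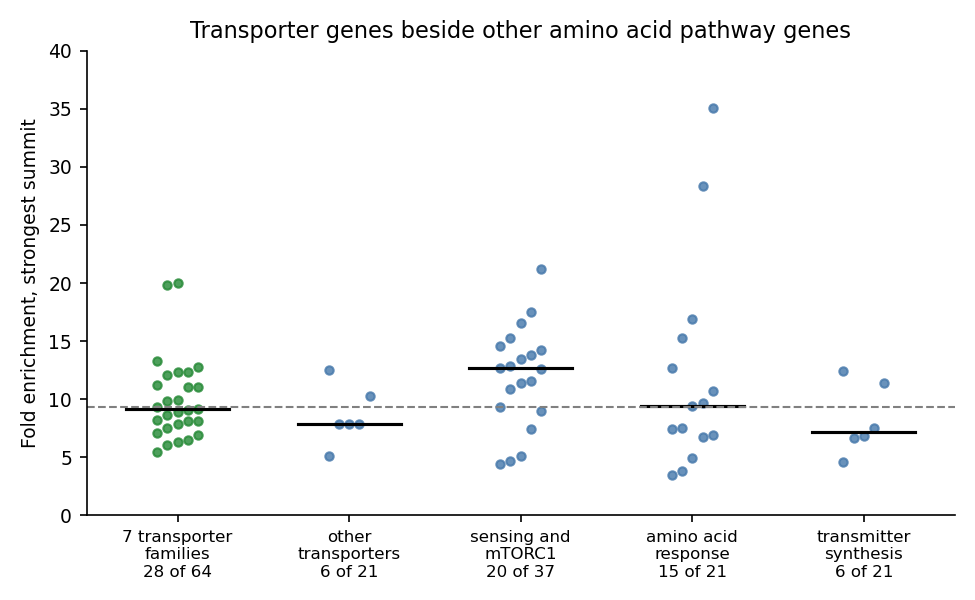
Each point is the fold enrichment at the strongest summit of 1 gene with a peak, for the 7 transporter families (green) and 4 lists of related genes (blue). Black bars are medians, the dashed line is the median of 9.36 over all protein-coding genes with a peak, and the labels give genes with a peak of genes on the list, with medians from 7.16 to 12.6.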

How the data were processed

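Per the labels' protocols, uterine RNA was isolated with TRIzol, and the library kit keeps strand. The submitters' processing notes name MACS3 3.0.0a7, HISAT2 2.2.1 and mm10 without roles. Not given in the sources used here are run options, pooling and how the input entered peak calling. The deposited peak list gives positions, a score, a fold enrichment (ratio) and the −log10 p-value and q-value of each peak. These values are the authors' and only describe and filter peaks within the list. No per-sample input table was used here.

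Pileup and background were solved from the deposited fold enrichment and Poisson p-value. The solved pileup came within 0.05 of a step of a whole number in 99.97% of peaks, and the solver was tested on simulated data. Gene spans came from a RefSeq table of GRCm38.p6, the assembly of mm10. Strand and starts came from RefSeq promoter windows. Peaks carry no strand. Coordinates count from 1. A gene counted when a summit lay in its span, also where spans overlap. Members, lists and rules were chosen with earlier results of these data known. Members are named with or without a peak, some items are not reported here, and the rule asked for intervals for the 12 strongest, the 6 with most peaks and the 5 strongest genes of each list, and intervals of other members with a peak were added. Exons, and peak sequences outside the promoter windows, were not analysed here. The alternatives changed the minimum −log10 q (5), fold enrichment (4) or pileup (10), the assignment to genes, the median over peaks, no added 1 and the peak midpoint. Calculations used scipy 1.17.1, pandas 2.3.3 and numpy 2.4.6 under Python 3.11.15, and plots matplotlib 3.10.9.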

Additional observations from a re-analysis of the deposited data

How the results depend on the processing

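The share of transporter genes with a peak lay between 39.1% (25 genes, summit in exactly 1 gene, beside 40.8% of all protein-coding genes) and the reported 43.8%, over 6 alternatives and 2 more, chosen after seeing the data, that left out Slc7a6os (42.9%) or summits over 250 bp before the first listed start. The count of 59 peaks fell to between 47 and 55 with stricter thresholds. With summits in exactly 1 gene, the Slc3a family had 1 gene with a peak in place of 2, since Slc3a1 shares its summit, and Slc43a1 fell from 19.8 to 5.13. Under the same setting Slc6a went from 4 genes with a peak to 3 and Slc7a from 7 to 6. A pileup of at least 10 also left Slc6a with 3. The median strongest enrichment of 9.13 moved to 7.41 when each gene was given its median peak (7.43 over all protein-coding genes) and to 16.1 without the added 1 (17.3). Without it Slc38a10 rose to 26.0, below Slc43a1 at 50.4, Slc38a1 at 41.3, Slc6a8 at 30.5 and Slc7a8 at 28.5, all with backgrounds under 1, among the 12 genes with the strongest peaks. The relative position of 0.913 stayed between 0.912 and 0.915 under both alternatives. The sequence motif at peaks was not run outside the promoter windows, for want of a genome. No paired analysis was possible because there was 1 IP and 1 input sample and no replicate. Peaks of fewer than 10 fragments have wide intervals, and no order is read from them.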

Other observations

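Peaks just outside the transporter genes lay in other genes. Within 5 kb outside the spans of the 64 genes lay 14 summits, counted once for each gene they adjoin, and 0 of them lay outside every gene. The summits beside Slc7a6 lay in Slc7a6os and those beside Slc7a6os in Slc7a6, so these are peaks of members. Of the genes without a peak, 3 had a summit within 5 kb outside the span. Slc7a10 was followed by 2 summits of 16.1 and 12.6 in Lrp3, a lipoprotein receptor family gene, the nearer at 1250 bp. Slc1a7 had one of 10.1 in Podn at 4370 bp, and Slc7a7 one of 3.39 in Oxa1l at 1066 bp. Each lies in a span that does not belong to the transporter gene, and which transcript gave it was not tested.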
